A study of Mus musculus with 8 samples.

Results

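The prostaglandin E2 system was taken as 10 genes that make, clear or sense this lipid signal: the cyclooxygenases Ptgs1 and Ptgs2, the synthases Ptges and Ptges2, the receptors Ptger1, Ptger2, Ptger3 and Ptger4, the uptake carrier Slco2a1 and the degrading enzyme Hpgd. Each gene was read from a probe set (a group of array probes for 1 transcript) annotated to that gene alone, and 9 of the 10 were found in this way among 19938 genes. Ptgs1 was not analysed here. Each of the 9 had 1 such probe set, so no choice between probe sets was needed. The set was drawn up around Ptger3 because its difference between flown and ground mice was already known from these arrays. The difference of Ptger3 is therefore given as a description, with no test, while the other genes were added for their place in the pathway.

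The arrays hold thymus RNA from 8 C57BL/6NTac mice, 8 weeks old, with no genetic change or drug treatment named. In the spaceflight group 4 mice spent 13 days aboard the space shuttle. In the ground-control group 4 mice of matching age and sex stayed on Earth, housed alike in animal enclosure modules. The sources used here do not state the sex or the interval from landing to dissection. Values are log2 expression, so a difference of 1 is a 2-fold change, and every difference is spaceflight minus ground control.

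Prostaglandin E2 is made from arachidonic acid, which phospholipases cut from membranes. Cyclooxygenases turn it into prostaglandin H2, and prostaglandin E synthases finish the molecule. It acts on nearby cells through the receptors EP1 to EP4, which the Ptger genes encode. EP2 and EP4 raise cyclic AMP, EP3 mostly lowers it through inhibitory G proteins, and EP1 raises calcium. The carrier Slco2a1 takes the molecule into cells, where Hpgd oxidises it to an inactive form. In lymphocytes signalling through EP2 and EP4 restrains activation, and in fat cells EP3 restrains the breakdown of stored fat.

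In 4 of these genes, Ptger3, Ptgs2, Ptges and Ptger4, all 4 spaceflight arrays lay below all 4 ground-control arrays. This held for 4.28% of all genes, and Ptger3 had been chosen for its difference. The DNA before the start is shown for 3 of the 4, to set these stretches side by side. The Ptger3 stretch leaves out the 55 bases nearest its start, which lie inside the gene's outer bounds. For Ptges the window of 250 bases lies inside the gene's outer bounds, and it is not printed. The stretches are read 5′ to 3′ on the gene's own strand, from RefSeq on build GRCm38.p6, and stop before the gene's outermost annotated base. They lie at chr3:157566626-157566820 (plus strand, 195 bases) for Ptger3, chr1:150099781-150100030 (plus strand) for Ptgs2 and chr15:5244188-5244437 (minus strand) for Ptger4. Capitals mark matches to the motifs searched.
Ptger3: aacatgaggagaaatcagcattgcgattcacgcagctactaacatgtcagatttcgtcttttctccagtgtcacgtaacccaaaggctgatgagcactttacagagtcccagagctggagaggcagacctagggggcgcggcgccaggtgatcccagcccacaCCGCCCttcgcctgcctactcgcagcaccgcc
Ptgs2: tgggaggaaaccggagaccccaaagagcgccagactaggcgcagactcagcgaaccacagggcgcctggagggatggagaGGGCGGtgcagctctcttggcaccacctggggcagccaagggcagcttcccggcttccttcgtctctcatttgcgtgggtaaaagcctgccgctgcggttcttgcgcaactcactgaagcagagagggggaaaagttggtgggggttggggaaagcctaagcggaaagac
Ptger4: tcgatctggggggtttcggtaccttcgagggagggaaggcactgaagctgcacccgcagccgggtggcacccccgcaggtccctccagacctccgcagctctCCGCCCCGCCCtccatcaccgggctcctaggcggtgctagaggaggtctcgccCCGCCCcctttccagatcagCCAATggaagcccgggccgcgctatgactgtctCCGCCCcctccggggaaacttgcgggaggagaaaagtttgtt
Windows of 250 bases before the start in RefSeq were searched on both strands for the cyclic AMP response element TGACGTCA and its shorter form TGACG, the E-box CACGTG, the heat shock element core GAANNTTC, the TATA box TATAAA, the CCAAT box CCAAT and the GC box GGGCGG. The GC box was found 3 times before Ptger3 (1 of them whole within the printed stretch), 4 times before Ptger4 (2 of them sharing a base), 2 times before Ptges and 1 time before Ptgs2, and 32.7% of 32851 RefSeq promoter windows of the same length hold at least 1. Ptger4 also held a CCAAT box, which 33.8% of windows have. None of these 4 windows held TGACG (17.8% of windows), TGACGTCA (1.5%), CACGTG (6.0%), GAANNTTC (6.7%) or TATAAA (12.4%). Among the matched genes whose groups overlapped, Hpgd and Slco2a1 also held 1 GC box each, Ptges2 and Ptger2 none. Hpgd and Ptges2 each held GAANNTTC, Ptges2 also CACGTG, Slco2a1 TATAAA and Ptger2 CCAAT. These are matches of letters only, in windows set by the RefSeq start. Bases after that start were not searched, so nothing is said of motifs there.

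Over all genes, 16 of 19938 were called at an adjusted p under 0.05, 3 higher and 13 lower (limma's moderated test with Benjamini-Hochberg adjustment, used for every p given here). Spaceflight replicates 1 and 3 stood apart: both had an interquartile range of 2.43 log2 units, while the other 6 arrays had 2.68 to 2.95. The median difference was 0.10 in the dimmest 25% of genes, which hold Ptger2, and -0.11 in the 25% just above the median level, which hold Ptger1, Ptger3, Ptger4, Ptgs2, Ptges and Ptges2. It was -0.13 in the brightest 25%, with Slco2a1 and Hpgd. Without these 2 arrays the 4 medians lay between -0.03 and 0.00, so values without them are given beside most of the genes and lists described. Thymocyte markers were as the label says: the mean level of 8 such genes (Cd3e, Cd4, Cd8a, Cd8b1, Rag1, Rag2, Ptcra and Dntt) lay between 10.12 and 10.45 on every array.

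Among the receptors, Ptger3 differed most. It measured 7.05, 7.24, 7.60 and 7.06 in ground-control replicates 1 to 4 and 5.94, 6.01, 6.21 and 5.80 in spaceflight replicates 1 to 4. The highest spaceflight array was thus well below the lowest ground-control array, and the 2 groups did not overlap. The means were 7.24 ± 0.26 on the ground and 5.99 ± 0.17 in flight (SD, n = 4 each), a difference of -1.25 ± 0.14 (± SE), or 2.38-fold lower. Among all genes this difference ranked 17 from the lowest, and 0.176% of genes were lower by at least 2-fold. The 2 arrays that stood apart were not the lowest for Ptger3. Replicate 4 was, and without replicates 1 and 3 the difference was -1.33. Leaving out each array in turn gave differences from -1.32 to -1.13. In whole lobes, fewer cells of a type and less RNA per cell cannot be told apart, here and for every gene below.

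Ptger4, the EP4 receptor and the main cyclic AMP-raising prostaglandin receptor of many immune cells, also had groups that did not overlap. Its levels were 7.82, 7.71, 7.58 and 7.60 on the ground and 7.04, 7.47, 7.13 and 7.55 in flight. The gap between the groups was small, and spaceflight replicates 1 and 3 were the lowest. The difference was -0.38 ± 0.13 (adjusted p = 0.38, 95% interval -0.67 to -0.08), and it was -0.17 without those 2 arrays.

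Ptger2, the EP2 receptor, lay the other way. It measured 4.79, 4.40, 4.76 and 4.56 on the ground and 4.88, 4.65, 4.95 and 4.81 in flight, and the groups overlapped. Its difference was 0.20 ± 0.12 (adjusted p = 0.539, interval -0.07 to 0.46), among dim genes whose median was 0.10, and it was 0.10 without replicates 1 and 3. Ptger2 was the 1 gene of the 9 that a filter dropping the dimmest 25% of genes would remove, and whether it lay above background is unknown. Ptger1, the EP1 receptor, measured 6.74, 6.45, 6.48 and 6.44 on the ground and 6.72, 6.46, 6.13 and 6.75 in flight. Its means nearly coincided, with a difference of -0.01 ± 0.15 (adjusted p = 0.976, interval -0.34 to 0.31), and the sign turned with the scaling (0.07 with arrays centred on their 75th percentiles).

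**Figure D1:**
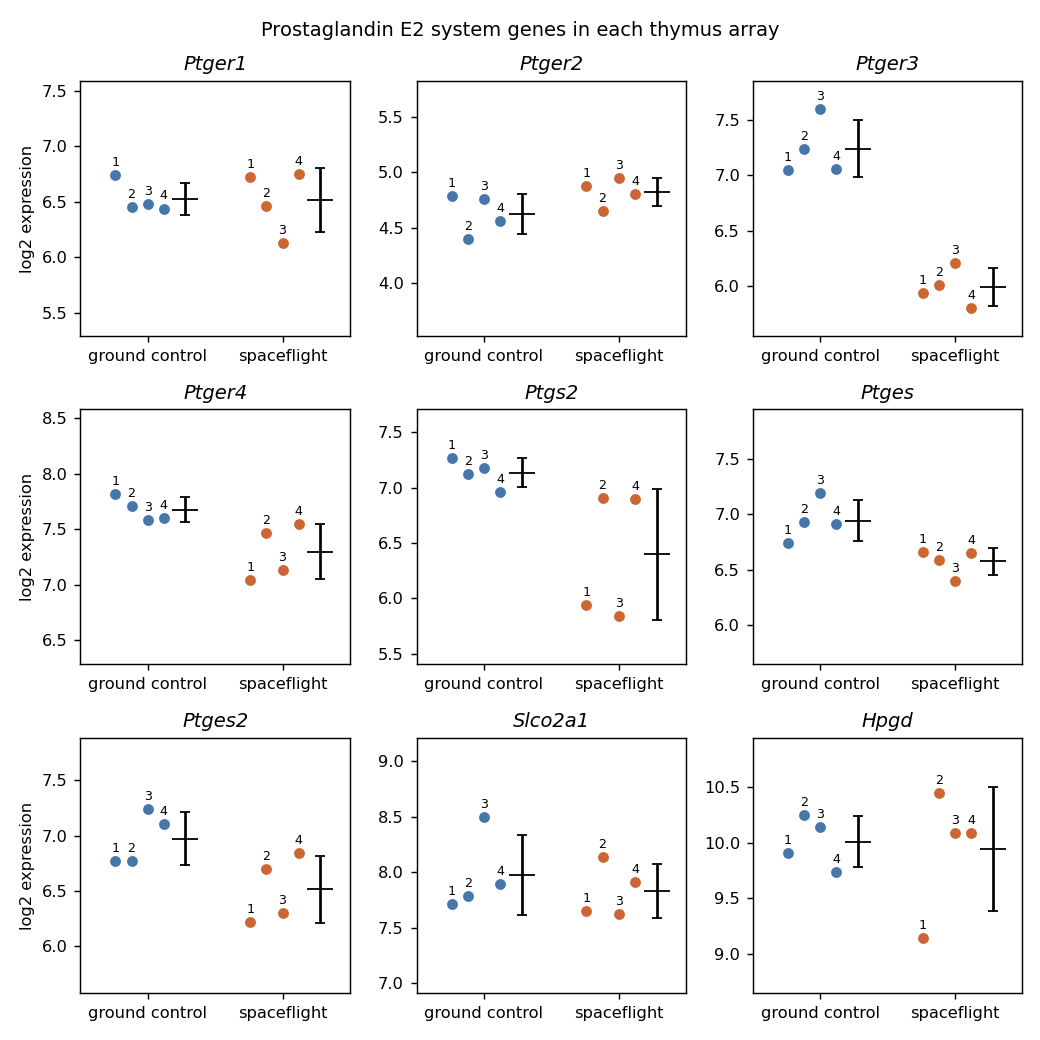
Log2 expression of the 9 genes in each array, with ground-control arrays in blue, spaceflight arrays in orange, replicate numbers above the points, and bars for mean ± SD (n = 4); every panel spans the same height on the log2 axis. Ptger3 is split into 7.05 to 7.60 on the ground and 5.80 to 6.21 in flight, while in Ptgs2 spaceflight replicates 1 and 3 sit near 5.9 and replicates 2 and 4 close to the ground-control arrays.

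Of the measured enzymes that make prostaglandin E2, Ptgs2, the inducible cyclooxygenase, had the largest difference. It measured 7.27, 7.12, 7.18 and 6.96 on the ground. In flight it measured 5.94, 6.91, 5.84 and 6.90. All 4 spaceflight arrays were below all 4 ground-control arrays, but they fell into 2 levels, with replicates 1 and 3 about a log2 unit below replicates 2 and 4. The difference was -0.73 ± 0.23 (adjusted p = 0.331, interval -1.24 to -0.23). Without replicates 1 and 3 it was -0.23, so the size of the Ptgs2 difference rested on the same 2 arrays whose values are compressed as a whole. Their part in the result was not tested further.

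Ptges, the inducible microsomal synthase that usually works with Ptgs2, was steadier. Its levels were 6.74, 6.93, 7.19 and 6.91 on the ground and 6.66, 6.59, 6.40 and 6.65 in flight. The groups did not overlap, though the nearest arrays of the 2 groups lay close together. The difference was -0.37 ± 0.12 (adjusted p = 0.349, interval -0.63 to -0.10), and it was -0.32 without replicates 1 and 3.

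Ptges2, a second membrane-associated prostaglandin E synthase, measured 6.77, 6.77, 7.24 and 7.10 on the ground and 6.22, 6.70, 6.30 and 6.84 in flight. Spaceflight replicate 4 lay above 2 ground-control arrays, so the groups overlapped. The difference was -0.45 ± 0.17 (adjusted p = 0.393, interval -0.81 to -0.09), against -0.20 without replicates 1 and 3.

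For both genes that remove prostaglandin E2 the groups overlapped widely. Slco2a1, the carrier that brings it into cells, measured 7.71, 7.78, 8.50 and 7.89 on the ground and 7.65, 8.14, 7.62 and 7.91 in flight. Ground-control replicate 3 was the highest array, and without it the difference of -0.14 ± 0.18 (adjusted p = 0.755, interval -0.54 to 0.25) became 0.04. Hpgd, the dehydrogenase that inactivates prostaglandins, measured 9.91, 10.25, 10.14 and 9.74 on the ground and 9.14, 10.45, 10.09 and 10.09 in flight. Spaceflight replicate 1 was the lowest array and replicate 2 the highest. The difference was -0.07 ± 0.23 (adjusted p = 0.912, interval -0.58 to 0.44), or 0.20 without spaceflight replicate 1. A difference of Slco2a1 or Hpgd as large as that of Ptger3 lies outside their intervals, but differences within those bounds are not excluded. The bounds are not a limit of detection, since the larger difference of Ptgs2, -0.73, was not called either.

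**Figure D2:**
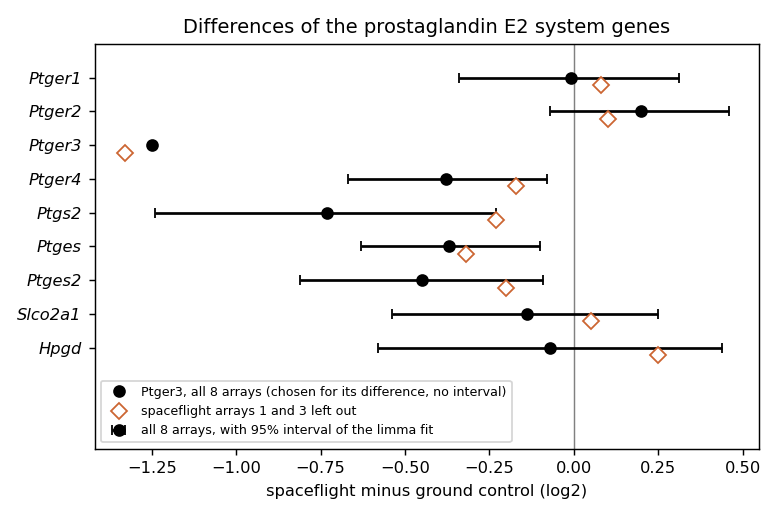
Difference between spaceflight and ground control (log2) for the 9 genes, as black points with 95% intervals of the fit over all 8 arrays (none for Ptger3, which was chosen for its difference), and as open orange diamonds without spaceflight replicates 1 and 3. Ptger3 moves from -1.25 to -1.33, while Ptgs2 moves from -0.73 to -0.23 and Ptger4 from -0.38 to -0.17.

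Counted together, 1 of the 9 genes, Ptger3, was called over all genes, where 0.0802% of all genes were called in either direction and 0.0652% as lower. Since Ptger3 was chosen from this comparison, nothing is read from that count, and the counts that follow leave Ptger3 out. Its call depended on which features were fitted and tested together. The calls of Ptger3 given next reuse the arrays from which it was chosen, so they are no check on its difference. In the fit over genes Ptger3 was called in all 8 cases without a single array. With all 28943 probe sets outside the array's presumed controls in the fit, Ptger3 was called with all arrays but in only 2 of the 8 cases without a single array (those without spaceflight replicate 3 or ground-control replicate 3), and with all 35557 probe sets of the table it was not called. Of the other 8 genes 0 were called by limma. Of these, 4 (Ptgs2, Ptges, Ptges2 and Ptger4) were lower at an unadjusted p under 0.05, against 7.38% of all genes lower and 10.8% in either direction. Without spaceflight replicates 1 and 3 the unadjusted limma p was 0.0843 for Ptgs2, 0.0383 for Ptges, 0.231 for Ptges2 and 0.177 for Ptger4. With all arrays the groups did not overlap, with spaceflight lower, in 3 of the 8 (37.5%), against 4.28% of all genes. Spaceflight replicates 2 and 4 taken alone were below every ground-control array in the same 3 genes, against 8.47% of all genes. Those 3 genes had to qualify, because all 4 of their spaceflight arrays did, so this is no separate check. In 0 of the 8 did the groups not overlap with spaceflight higher, against 1.73% of all genes. The median difference of the 8 was -0.25, against -0.02 over all genes. The mean was lower in flight for 7 of the 8 genes (53.5% of all genes) with all arrays, and for 4 of the 8 (53.4% of all genes) without spaceflight replicates 1 and 3.

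The wider pathway was described with 4 lists of 75 genes, of which 70 were measured. By limma 0 of the 70 were called in either direction, where 0.0802% of all genes were called. At an unadjusted p under 0.05 were 10 (14.3%), against 10.8% of all genes. The median difference of the 70 was -0.07, and in 5 of them (7.14%) all spaceflight arrays lay below all ground-control arrays, against 4.28% of all genes.

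Of 15 other prostanoid enzymes and receptors, 8 were lower and the median difference was 0.00 (0.09 without spaceflight replicates 1 and 3). Ptges3 came closest to the threshold. It encodes p23, named as a cytosolic prostaglandin E synthase and also a co-chaperone of Hsp90. It measured 11.03, 10.97, 11.19 and 11.10 on the ground and 10.44, 10.65, 10.45 and 10.37 in flight, without overlap. Its difference was -0.60 ± 0.11 (adjusted p = 0.0824), and -0.56 without replicates 1 and 3. Its other 2 probe sets gave -0.61 and -0.36. Ptgds, the lipocalin-type prostaglandin D synthase, was the 1 gene of the 70 with all spaceflight arrays higher: 5.26 to 5.60 in flight and 5.10 to 5.23 on the ground, with a difference of 0.21 ± 0.11 (adjusted p = 0.491), or 0.11 without replicates 1 and 3. Hpgds, the haematopoietic prostaglandin D synthase, differed by 0.26 ± 0.19 (adjusted p = 0.59), or 0.54 without replicates 1 and 3. Prxl2b, a prostamide and prostaglandin F synthase, differed by -0.23 ± 0.16 (adjusted p = 0.564), or 0.03 without them.

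Among 15 phospholipases and lipases that can release arachidonic acid, 7 were lower, with a median of 0.01 (-0.03 without replicates 1 and 3). Mgll, the lipase that frees arachidonic acid from the endocannabinoid 2-arachidonoylglycerol, measured 8.05, 8.23, 8.78 and 8.37 on the ground and 6.75, 7.81, 7.80 and 7.98 in flight. Its groups did not overlap and spaceflight replicate 1 was far below the rest. The difference was -0.77 ± 0.25 (adjusted p = 0.331), and -0.46 without replicates 1 and 3. The secreted phospholipase Pla2g2d differed by -0.53 ± 0.18 (adjusted p = 0.358) and the secreted phospholipase Pla2g10 by 0.37 ± 0.15 (adjusted p = 0.413). Without replicates 1 and 3 these were -0.23 and 0.22. Pla2g4a, the cytosolic phospholipase that supplies most arachidonic acid for prostaglandins, differed by -0.25 ± 0.15 (adjusted p = 0.529), and by -0.03 without the 2 arrays.

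Lipoxygenase and leukotriene genes use the same arachidonic acid for other mediators. Of 11 measured, 9 were lower, with a median of -0.19 (-0.11 without replicates 1 and 3). Alox15, a lipoxygenase of macrophages and other cells, differed by -0.47 ± 0.20 (adjusted p = 0.434). Ltc4s, the leukotriene C4 synthase, differed by -0.31 ± 0.16 (adjusted p = 0.478), Alox5, which starts leukotriene synthesis, by -0.22 ± 0.11 (adjusted p = 0.49), and the leukotriene receptor Cysltr2 by -0.19 ± 0.13 (adjusted p = 0.559). Without replicates 1 and 3 Alox15 differed by -0.20, Ltc4s by -0.08, Alox5 by -0.11 and Cysltr2 by -0.14.

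On the signalling side, 21 of 29 G protein and cyclic AMP genes were lower, with a median of -0.11 (-0.09 without replicates 1 and 3). Gnai1, an inhibitory G protein subunit of the kind EP3 couples to, measured 7.10, 7.16, 8.22 and 7.59 on the ground and 5.88, 7.03, 6.66 and 6.80 in flight. The groups did not overlap, but ground-control replicate 3 was high and spaceflight replicate 1 low, and the difference was -0.93 ± 0.27 (adjusted p = 0.301) or -0.60 without replicates 1 and 3. Creb1, the transcription factor activated by cyclic AMP, lay between 9.62 and 9.67 on the ground and between 9.31 and 9.47 in flight, a difference of -0.26 ± 0.10 (adjusted p = 0.393). Adcy6, an adenylyl cyclase, differed by -0.28 ± 0.11 (adjusted p = 0.397), also without overlap. Prkar2a, a regulatory subunit of the cyclic AMP-dependent kinase, differed by -0.50 ± 0.19 (adjusted p = 0.394), and its groups overlapped. Without replicates 1 and 3 Creb1 differed by -0.24, Adcy6 by -0.25 and Prkar2a by -0.31.

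**Figure D3:**
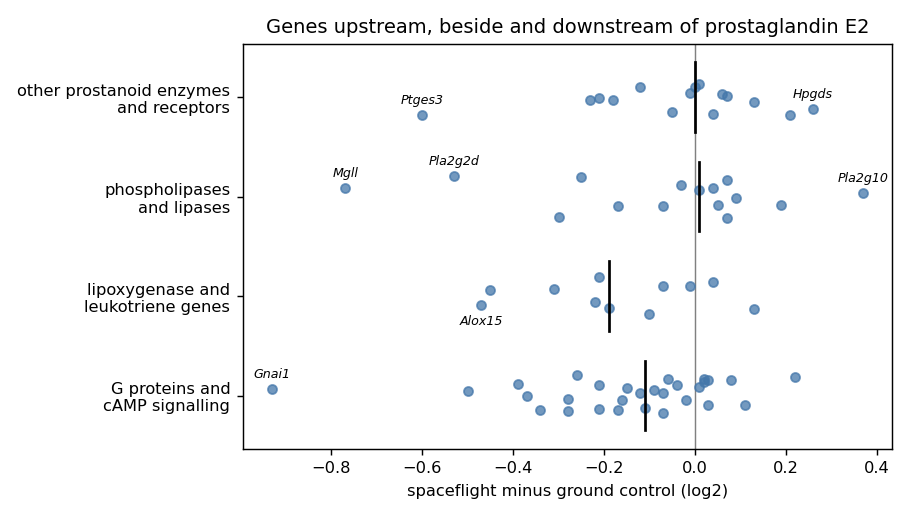
Difference between spaceflight and ground control (log2) for each of the 70 measured genes of the wider pathway, a point per gene, with a black bar at each list's median; height within a list carries no meaning. The medians run from -0.19 for the lipoxygenase and leukotriene genes to 0.01 for the phospholipases and lipases, and the genes farthest from 0 are Gnai1 at -0.93, Mgll at -0.77 and Ptges3 at -0.60.

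Levels of cell types that could carry Ptger3 were set beside it. White fat cell markers (8 of 10 listed genes measured) had a mean level of 8.46 to 8.97 on the ground and 7.45 to 8.39 in flight. All 8 were lower, 0 were called, and their differences ran from -0.83 to -0.10. The fat cell hormones Adipoq and Lep differed by -0.62 ± 0.34 (adjusted p = 0.503) and -0.75 ± 0.21 (adjusted p = 0.279), or by -0.13 and -0.87 without spaceflight replicates 1 and 3. Spaceflight replicate 1 was the lowest array for this list, at 7.45 against 8.33 to 8.39 in the other 3. Without it the list differed by -0.28, while Ptger3 differed by -1.23. Ground-control replicate 3 was the highest array for both. It was also the highest for the thymic epithelial, endothelial, fibroblast, skeletal muscle, and parathyroid and thyroid lists described below.

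Brown fat cell markers, whose defining gene Ucp1 lay between 10.01 and 11.44, had a mean level of 8.13 to 8.48 on the ground and 7.24 to 8.48 in flight. They differed by -0.21 with all arrays and by 0.08 without spaceflight replicate 1. Thymic epithelial markers (8 of 8 measured) had mean levels of 8.65 to 8.77 on the ground and 8.14 to 8.48 in flight. Of these, 7 were lower and 0 were called; Foxn1, the master regulator of this epithelium, differed by -0.63 ± 0.12 (adjusted p = 0.0888) and Psmb11, the proteasome subunit of cortical epithelium, by -0.79 ± 0.16 (adjusted p = 0.114), or by -0.64 and -0.89 without replicates 1 and 3. The list differed by -0.39, and by -0.24 without replicates 1 and 3.

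The mean levels of the other 7 lists overlapped between the groups. Endothelial markers differed by -0.21, macrophage and dendritic cell markers by -0.16, fibroblast markers by -0.08, tuft cell markers by -0.03 and mast cell markers by 0.00. Without replicates 1 and 3 these were -0.05, 0.11, 0.22, -0.02 and 0.08, so the macrophage and fibroblast lists changed sign. Skeletal muscle markers differed by -0.45, by -0.31 without replicates 1 and 3, and by -0.07 without spaceflight replicate 1 alone. The 3 measured parathyroid and thyroid markers differed by -0.36, or 0.00 without replicates 1 and 3, but these means join unlike genes. Tshr differed by -0.95 ± 0.27 (adjusted p = 0.283), Pth by -0.16 ± 0.43 (adjusted p = 0.891) and Tg by 0.02 ± 0.14 (adjusted p = 0.954). Without the 2 arrays these were -0.59, 0.69 and -0.12. The part of any of these cells in the Ptger3 difference was not tested.

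The genes whose pattern over the 8 arrays was most like that of Ptger3 were found by the root mean square difference between log2 values after each gene's own mean was removed. Over 19937 other genes the nearest were Acly, Acss2, Slc25a1, Me1 and Ppp1r3c, at 0.15, 0.22, 0.22, 0.24 and 0.24 log2 units. The spread of Ptger3 itself about its mean was 0.65 on this scale. Acly makes cytosolic acetyl-CoA from citrate, and it measured 10.36, 10.84, 10.82 and 10.58 on the ground and 9.59, 9.32, 9.54 and 9.22 in flight. Acss2 makes acetyl-CoA from acetate and ranged from 8.67 to 9.60 on the ground and from 7.81 to 8.24 in flight. Slc25a1, the mitochondrial citrate carrier, ranged from 8.95 to 9.74 and from 8.28 to 8.80. Me1, the cytosolic malic enzyme, ranged from 10.71 to 11.30 and from 9.36 to 10.47, and its other probe set gave the same difference of -1.30. Ppp1r3c, a subunit that targets a phosphatase to glycogen, ranged from 6.40 to 7.12 and from 5.67 to 6.14. These 5 genes were chosen for likeness on the same arrays, so their lower levels in flight follow from the choice. Of the other prostaglandin genes, the nearest to Ptger3 was Ptges at 0.48, which ranked 510, and the farthest was Ptger2 at 0.75.

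**Figure D4:**
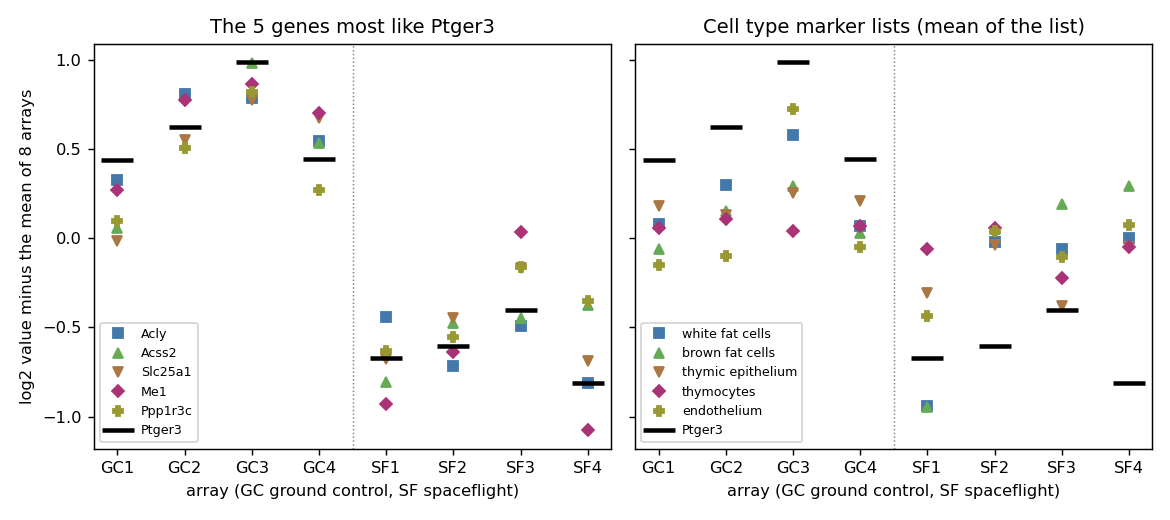
Log2 values minus the mean of the 8 arrays, for Ptger3 (black bars) beside the 5 genes most like it (left) and beside the mean of 5 cell type marker lists (right), by array, with GC for ground control and SF for spaceflight. Acly follows Ptger3 within a root mean square of 0.15, while both fat lists are lowest in spaceflight replicate 1; in replicates 2 to 4 the brown fat list lies within the ground-control range and the white fat list, at 8.33 to 8.39, below it.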

How the data were processed

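Thymus RNA of 8 mice was measured on Affymetrix arrays, with 6 µg of total RNA made into biotin-labelled cRNA, per the labels' protocols. The deposited values are log2 expression per probe set. RMA, which corrects background, equalises distributions by quantiles and summarises probes, and limma were used by the authors, per the submitters' processing notes. The sources used here do not give versions, genome build or filters. RMA values carry no detection call, so whether a dim gene lies above background is unknown. The table held 35557 probe sets. A run of 6614 consecutive identifiers without genes, taken to be controls, was left out, leaving 28943, of which 21789 had 1 gene and 1621 several. The platform annotation gave names, updated through Entrez identifiers with RefSeq's GRCm38.p6 table (21698 matched), and a gene took its probe set of highest mean, giving 19938 genes.

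Spaceflight was compared with ground control with limma 3.58.1 in R 4.3.3 (lmFit and eBayes, two-sided, all 8 arrays), with Benjamini-Hochberg adjustment over the 19938 genes and a threshold of 0.05. The procedure was tested on simulated data. The 10 genes, the lists and the alternatives were chosen with earlier results of these data known. Named were the 10 genes, the 4 genes of smallest p in each pathway list (none was called), the 5 most like Ptger3, and the first 2 measured markers of a cell type; other genes named were chosen after their values were seen. Motifs were also chosen after the data were seen. No pair of arrays held the same values, and precision is limited by their number. Alternatives were other centring, repeated quantile normalization, array weights, an intensity trend, a filter on dim genes, averaged probe sets, more probe sets tested, single arrays left out, spaceflight replicates 1 and 3 left out, and a replicate block.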

Additional observations from a re-analysis of the deposited data

Results flagged for a closer look

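A highest or lowest array far from the other 3 of its group was looked for in 52 named genes, in 104 groups in all, and found in 9. Chance gives about 1 in 20 such groups, and many of these genes share the same arrays. The figure given is the gap to the nearest array as a share of the group's range. Among the prostaglandin receptors, Ptger1 was high in ground-control replicate 1 (6.74, next 6.48; 0.852). In the wider pathway, Mgll was low in spaceflight replicate 1 (6.75, next 7.80; 0.858), Pla2g10 low in ground-control replicate 3 (4.76, next 5.20; 0.869) and Prkar2a high in the same array (7.06, next 6.44; 0.874). Among cell type markers, Adipoq and Cidea were low in spaceflight replicate 1 (7.31, next 8.98; 0.893, and 7.29, next 8.69; 0.881), while Tg was high in that array (5.44, next 4.91; 0.881). Col1a1 and Csf1r were high in ground-control replicate 3 (8.92, next 8.05; 0.842, and 8.20, next 7.75; 0.921).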

How the results depend on the processing

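The Ptger3 difference kept its sign in every alternative run and lay between -1.33 and -1.13, moving by less than the spread between replicates. Because its groups did not overlap, leaving arrays out could not change the sign, so this is no separate check. Of the other 8 genes 0 were called in any alternative, and of the 70 pathway genes 0 were in those where they were counted, which leaves out the fits over all probe sets outside the control run without single arrays. The count of prostaglandin genes called went from 1 to 0 with every probe set of the table tested. With all probe sets outside the control run, chosen after seeing the data, it was 1, and from 0 to 1 without single arrays. The count over all genes, 16, was 5 and 10 in those 2 fits with all arrays, and 6 to 15 without single arrays in the fit over genes (9 and 10 without spaceflight replicates 1 and 3 in turn, and 9, 8, 6 and 7 without ground-control replicates 1 to 4). With arrays centred on their 75th percentiles it was 11 (8 lower), and without spaceflight replicates 1 and 3 again 16, but with 8 higher and 8 lower. The replicate block gave 20 genes and changed no call among the prostaglandin genes; 1 of the 8 arrays correlated best with its own number in the other group. Same-numbered arrays did not deviate together (correlations of 0.24, -0.30, -0.10 and 0.07). Differences near 0 changed sign. Ptger1 was at 0.0658 with 75th-percentile centring, 0.0104 with repeated quantile normalization, 0.0769 without spaceflight replicates 1 and 3, and from -0.0919 to 0.115 without single arrays. Slco2a1 was at 0.0542 without replicates 1 and 3 and from -0.245 to 0.0357 without single arrays. Hpgd was at 0.0078 with 75th-percentile centring, 0.0478 with array weights, 0.255 without replicates 1 and 3, and from -0.24 to 0.195 without single arrays. The causes were not tested. The deposited values hold no signal over background, so how far dimness limits Ptger2 is unknown.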
